A study of Mus musculus with 35 samples.

Results

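Liver RNA of old mice taken 24 h after partial hepatectomy (PH) was compared with liver RNA of young mice taken at the same time after the same operation. The comparison used the 3 old and the 3 young arrays that the sample titles place in these groups, 6 of the 35 arrays of the series, and covered 18193 genes, each read by 1 probe set carrying a single gene symbol. Sham-operated livers were not part of it. All mice were CB6F1 males. The old mice were 25 to 27 months of age and came from the National Institute on Aging, and the young mice were 5 to 6 months of age and came from Jackson Laboratories, so age and supplier cannot be told apart. In both groups 70% of the liver was removed under anaesthesia. The 29 arrays of the other 12 groups (untreated livers at 0 h, livers 24, 38 and 48 h after sham surgery, and livers 38 and 48 h after PH, each in old and young mice) entered the fit only to estimate the spread of each gene and, where stated, to give the age difference under another condition. The labels do not say that the arrays of a group are separate animals, so the p-values measure the spread between samples, which may be technical.

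After removal of a large part of the liver, the hepatocytes of the remnant leave quiescence, pass through G1 and enter DNA synthesis, while they go on making plasma proteins, bile acids and urea. Early signals include cytokines and the immediate early transcription factors they induce. DNA synthesis follows the induction of cyclins and of E2F transcription factors, which switch on the genes that license and copy DNA. In mice, regeneration is known to be slower and weaker at high age. Whole liver was measured, so fewer cells of a type and less RNA per cell cannot be told apart.

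Signals are given as the log2 of RMA expression values, and a difference is old minus young on that scale, ± the standard error of a limma fit with the spread of each gene pooled over all 35 arrays (n = 3 against 3). A gene was called, and is said to have risen or fallen, at an adjusted p under 0.05 over all 18193 genes. The hepatocyte marker Alb, encoding albumin, had signals of 14.85, 14.80 and 14.88 on the old arrays, against 14.88, 14.90 and 14.90 on the young arrays, near the top of the scale in both groups. The old arrays were less alike than the young ones. Across genes their median correlation with the other arrays of their group was 0.965, 0.980 and 0.971, against 0.993, 0.994 and 0.993 for the young arrays, and the typical standard deviation of a gene within the group was 0.158 in old livers and 0.102 in young livers. Old replicate 1 stood apart most, as did 1 old array taken 38 h after PH. The signals of 3' over 5' control probe sets, a measure of RNA integrity, overlapped between the groups: for Gapdh they lay between 0.0960 and 0.177 in old livers and between 0.0564 and 0.128 in young livers on the log2 scale, and for actin between 0.452 and 0.669 in old livers and between 0.559 and 0.638 in young livers. Old replicate 1 had the highest value of the 6 arrays in both (0.177 and 0.669), above every young array.

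In old livers 822 genes were higher and 523 were lower than in young livers, 1345 called genes or 7.39% of those tested (4.52% higher and 2.87% lower). The median size of the called differences was 0.64, and 281 called genes differed by more than 1, with 152 of them higher and 129 lower in old livers. The 3 old and the 3 young arrays did not overlap for 1277 of the called genes. Without a test, the groups did not overlap for 2274 genes higher in old livers (12.5% of all genes) and 2535 lower (13.9%). Across all genes the median difference was -0.03, with 55.3% of genes below 0. The count rests on the spread estimated from all conditions: when the 6 arrays compared were fitted alone, 0 genes were called by limma, the smallest adjusted p was 0.0555 and 3086 genes had an unadjusted p under 0.05, among them 1303 of the 1345. It also depends on single arrays. With old replicate 1, 2 or 3 left out, 218, 256 and 3786 genes were called, and with young replicate 1, 2 or 3 left out, 670, 169 and 332. Among called genes, old replicate 1 was the old array farthest from the young mean in 67.8% of those higher and 65.8% of those lower, and old replicate 3 was the nearest in 77.5% and 75.9%. Called in the full fit and in each of the 6 fits without 1 array were 85 genes, 56 higher and 29 lower in old livers. Of the genes named below these are Etnppl, Egln3, Onecut1, E2f1 and Fbp1, which fell, and Plscr1, Noct, Snhg3, Sox9, Mmp14, Map3k5, Trip11 and Il6, which rose.

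**Figure D1:**
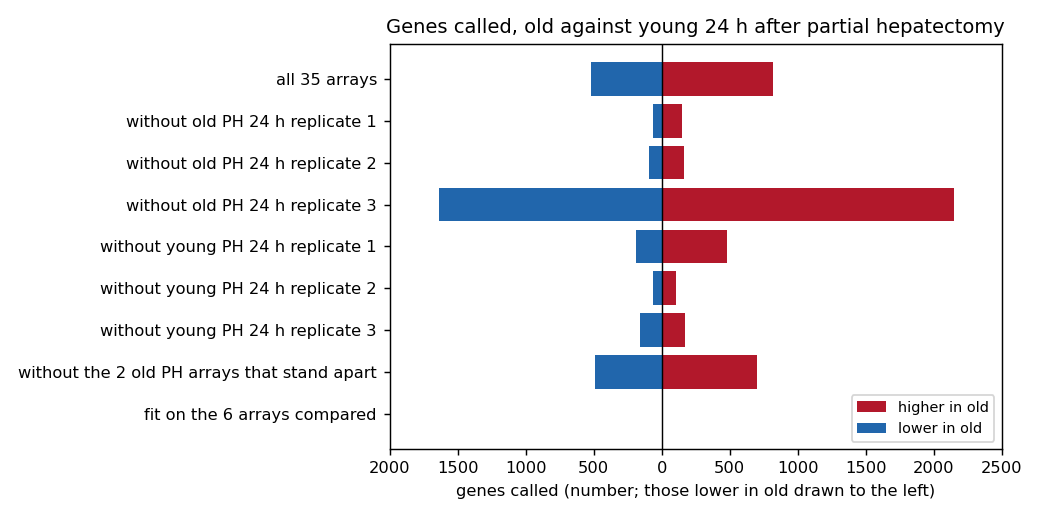
Number of genes called at an adjusted p under 0.05 in old against young livers 24 h after PH (horizontal axis, genes higher in old to the right and lower in old to the left), for the fit on all 35 arrays and for fits without single arrays. The count was 1345 with all arrays, 3786 without old replicate 3, 169 without young replicate 2 and 0 in the fit on the 6 arrays alone.

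Genes of DNA replication were lower in old livers. Of 39 measured members of a list of S phase and replication genes, 16 fell and none rose, which is 41.0% of the list beside 2.87% of all genes called lower. All 39 differences were below 0, with a median of -0.67 beside -0.03 over all genes. The promoters of 3 of the members that fell are shown because they hold matches to the E2F motif, searched as TTTCCCGC or TTTGGCGC on both strands. Each stretch gives the 250 bases before the RefSeq start of the gene (GRCm38.p6), 5′ to 3′ on the strand of the gene, with matches in capitals. The capitals of Mcm5 and Cdc6 are these letters read on the opposite strand.
Mcm6, chr1:128359706-128359955, minus strand: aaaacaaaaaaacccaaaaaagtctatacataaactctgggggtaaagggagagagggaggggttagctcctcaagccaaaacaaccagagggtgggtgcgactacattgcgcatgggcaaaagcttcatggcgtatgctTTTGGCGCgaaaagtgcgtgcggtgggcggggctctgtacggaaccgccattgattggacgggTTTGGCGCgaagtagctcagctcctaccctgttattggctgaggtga
Mcm5, chr8:75109259-75109508, plus strand: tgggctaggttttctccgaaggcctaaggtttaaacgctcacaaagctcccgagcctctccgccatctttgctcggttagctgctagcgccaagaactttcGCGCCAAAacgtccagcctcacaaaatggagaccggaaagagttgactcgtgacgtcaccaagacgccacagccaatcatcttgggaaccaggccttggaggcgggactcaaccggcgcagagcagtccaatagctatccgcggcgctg
Cdc6, chr11:98907901-98908150, plus strand: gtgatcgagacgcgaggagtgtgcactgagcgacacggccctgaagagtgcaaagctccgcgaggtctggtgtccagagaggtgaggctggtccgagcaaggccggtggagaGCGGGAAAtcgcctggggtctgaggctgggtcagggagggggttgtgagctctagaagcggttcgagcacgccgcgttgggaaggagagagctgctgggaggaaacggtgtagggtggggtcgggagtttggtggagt
A match lay in windows of 300 bases (250 before and 50 after the start) of 12 of the 34 members with a promoter in the table (35.3%), against 400 of 14452 genes in all (2.8%). Of the 16 members that fell, 12 had a promoter in the table and 8 of these held a match. A match is a run of letters and not a measured binding site.

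Mcm6, a subunit of the MCM helicase that unwinds DNA at replication forks, had signals of 7.997, 7.63 and 8.87 on the old arrays, against 10.76, 10.54 and 9.62 on the young arrays. The old signals lay below all 3 young ones, and Mcm6 fell by 2.14 ± 0.52 (adjusted p = 0.0178), 4.42-fold lower in old livers. Its other probe sets differed by -2.60 and -0.01. Mcm10, a factor that activates the helicase, had signals of 8.62, 8.78 and 10.14 on the old arrays, against 10.88, 11.14 and 11.73 on the young arrays, and it fell by 2.07 ± 0.44 (adjusted p = 0.0112). The other probe sets of Mcm10 differed by only -0.57 and -0.11. The set used read higher in untreated livers (means of 11.41 in old and 12.10 in young) than 48 h after PH (9.76 and 9.62). The helicase subunit Mcm5 fell by 1.83 ± 0.55 (adjusted p = 0.0453), with old replicate 3 nearest to the young ones (7.64, 7.44 and 8.61 in old and 10.06, 9.89 and 9.22 in young livers). For Mcm5 the other probe sets differed by -1.52 and -0.30. Cdc6, which loads the helicase onto origins, had signals of 4.81, 4.85 and 5.48 on the old arrays, against 6.92, 7.39 and 5.75 on the young arrays, a difference of -1.64 ± 0.38 (adjusted p = 0.0153). In these genes old replicate 3 was the highest old array. In Mcm5, Mcm6 and Cdc6 young replicate 3 was the lowest young array, whereas in Mcm10 it was the highest. Uhrf1, a reader of hemimethylated DNA that maintains methylation through replication, fell by 1.01 ± 0.25 (adjusted p = 0.0194). For Rrm2, a subunit of ribonucleotide reductase, the arrays overlapped, with 10.56, 7.73 and 8.07 on the old arrays, against 10.16, 9.996 and 8.39 on the young arrays, and the difference of -0.73 ± 0.53 did not pass (adjusted p = 0.399). Pcna, the sliding clamp of the replicative polymerases, did not pass either (-0.57 ± 0.23, adjusted p = 0.117). The calls numbered 2, 0 and 22 without old replicate 1, 2 or 3 and 4, 1 and 8 without young replicate 1, 2 or 3.

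The mean level of the replication list was 8.09, 7.83 and 8.27 on the old arrays, against 8.98, 9.03 and 8.50 on the young arrays. In untreated livers the median age difference of its members was 0.03, 24 h after sham surgery it was -0.01, and 38 and 48 h after PH it was -1.07 and -0.25. At 38 h 22 members were called lower in old livers, and at 48 h none was. None of the 39 members passed the test of a change in the age difference against 0 h, sham or 48 h (23, 13 and 9 had an unadjusted p under 0.05).

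**Figure D2:**
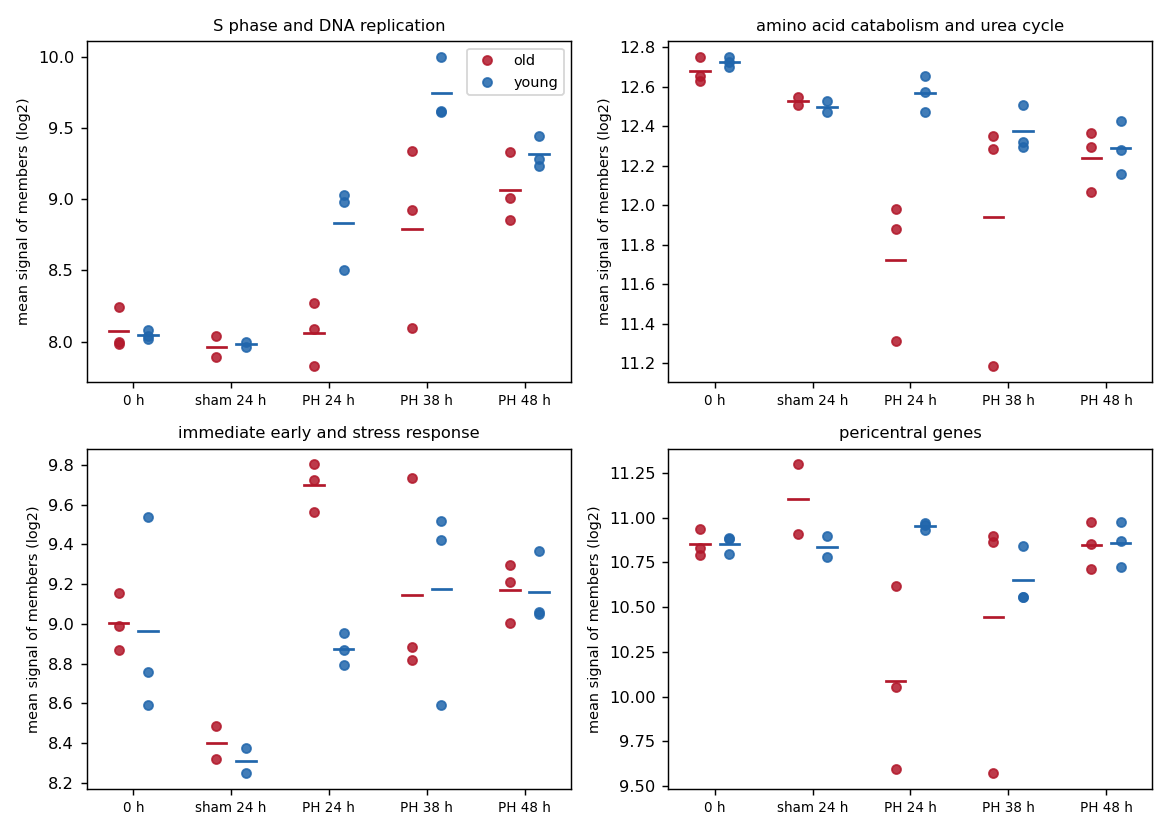
Mean log2 RMA signal (vertical axis) of the members of 4 gene lists on each array, with old (left) and young (right) at each condition and bars at group means. 24 h after PH the 3 old arrays lie below the 3 young ones for the replication, amino acid and pericentral lists and above them for the immediate early list.

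Regulators of the step before DNA synthesis moved both ways, with 3 of 26 measured G1 regulators rising and 4 falling. Called were 26.9% of this list beside 7.39% of all genes. Ccne2, the cyclin E that activates Cdk2 at the entry into S phase, had signals of 4.96, 4.84 and 5.23 on the old arrays, against 6.93, 7.53 and 5.95 on the young arrays, and it fell by 1.79 ± 0.35 (adjusted p = 0.00721). The transcription factor E2f1 fell by 0.77 ± 0.16 (adjusted p = 0.00919), with 7.75, 7.78 and 8.22 in old and 8.76, 8.73 and 8.56 in young livers. Cdkn1a, the p21 inhibitor of cyclin-dependent kinases and a target of p53, rose: its signals were 12.95, 12.15 and 11.35 on the old arrays, against 10.37, 9.96 and 9.98 on the young arrays. The difference was 2.05 ± 0.41, adjusted p = 0.00806, or 4.13-fold. Myc, a transcription factor that drives growth and entry into the cycle, also rose (1.29 ± 0.31, adjusted p = 0.0179), with 9.67, 9.18 and 8.74 on the old arrays, against 7.95, 7.88 and 7.87 on the young arrays. Cyclin D1 (Ccnd1), with 8.75, 10.16 and 10.79 on the old arrays, against 11.33, 11.19 and 10.47 on the young arrays, did not pass (-1.10 ± 0.48, adjusted p = 0.147). Without old replicate 1, 2 or 3 the list had 2, 3 and 13 called genes, and without young replicate 1, 2 or 3 it had 5, 2 and 4. Among 21 measured p53 targets, Cdkn1a and Zmat3, which codes for an RNA-binding zinc finger protein (0.50 ± 0.15, adjusted p = 0.0463), rose and none fell. That is 9.5% of the list beside 7.39% of all genes called (median 0.22, or 0.14 without old replicate 1). This count moved with single arrays, at 0, 1 and 8 without old replicate 1, 2 or 3 and 3, 1 and 1 without young replicate 1, 2 or 3.

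Of 37 mitotic genes Cdk1 and Foxm1 were called, both lower, which is 5.4% of the list beside 7.39% of all genes called. All 37 differences were below 0, with a median of -0.43. At 38 h after PH, with the old array that stood apart included, the median was -1.31 and 22 members were called lower. Cdk1, the kinase that starts mitosis, had signals of 7.66, 7.53 and 8.25 on the old arrays, against 9.81, 9.35 and 8.68 on the young arrays (difference -1.47 ± 0.45, adjusted p = 0.0466). Foxm1, a transcription factor of the G2 and M phase genes, fell by 0.43 ± 0.13 (adjusted p = 0.04). Neither was called without old replicate 1 or 2 or any single young replicate, and 3 mitotic genes were called without old replicate 3.

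**Figure D3:**
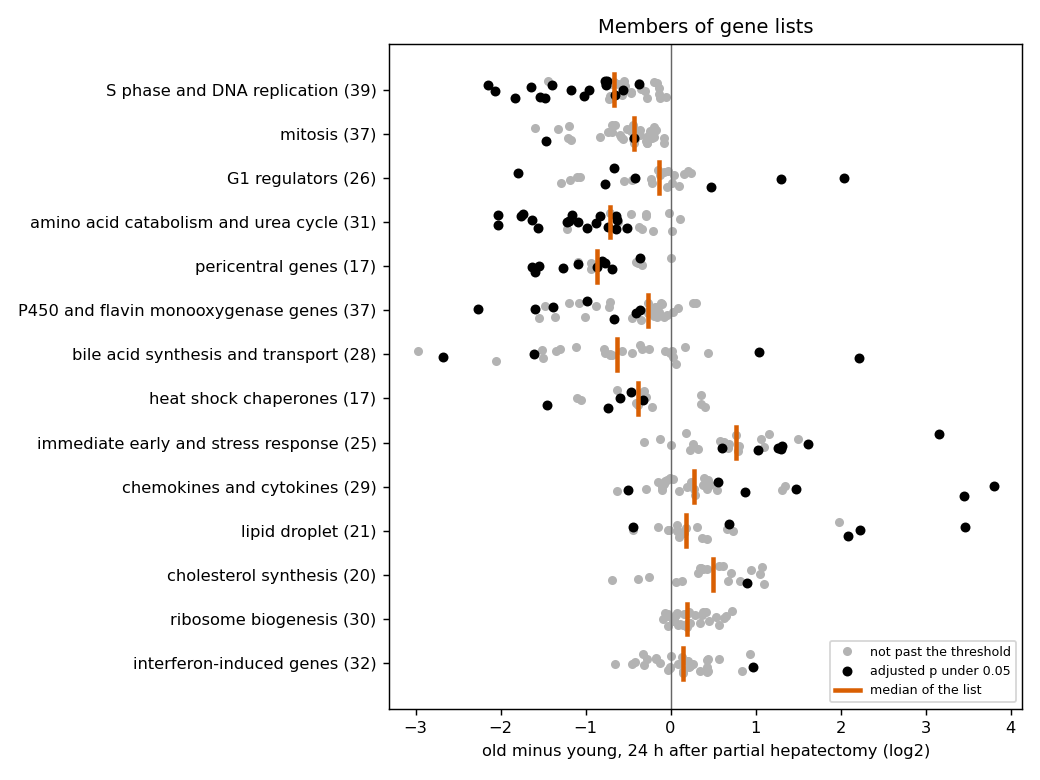
Difference between old and young livers 24 h after PH (horizontal axis, log2) for each measured member of 14 gene lists, with the number of members in brackets, called genes in black, others in grey and the list median as an orange bar. All replication and mitosis genes lie below 0, and 23 of 25 immediate early genes lie above 0.

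Immediate early and stress response genes were higher in old livers. Of 25 measured members 7 rose and none fell, beside 4.52% of all genes called higher. The differences of 23 were above 0, and the median was 0.78. Fits lacking old replicate 1, 2 or 3 called 1, 1 and 10 members, and fits lacking young replicate 1, 2 or 3 called 2, 1 and 1. Ier3, a stress-induced regulator of survival, had signals of 12.32, 9.68 and 9.49 on the old arrays, against 7.66, 7.43 and 6.95 on the young arrays. All old signals were above the young ones, that of replicate 1 by the most, and the difference was 3.15 ± 0.86, adjusted p = 0.031. Klf10, a transcription factor induced by TGF-beta, rose by 1.62 ± 0.46 (adjusted p = 0.0343), and Dusp5, a phosphatase of ERK kinases, rose by 1.32 ± 0.38 (adjusted p = 0.0381). Egr1, with 11.50, 12.85 and 12.23 on the old arrays, against 10.06, 12.35 and 12.27 on the young arrays, overlapped and did not pass (0.63 ± 0.64, adjusted p = 0.558). The median age difference of the list was -0.02 at 0 h, 0.06 after sham, 0.00 at 38 h and 0.01 at 48 h after PH. At 38 h its mean level was 8.82, 8.89 and 9.73 on the old arrays, against 9.42, 9.52 and 8.59 on the young arrays. The highest value came from the old 38 h array that stood apart. Promoters of 19 members held no AP-1 motif (TGAGTCA or TGACTCA), which 5.3% of all promoters hold, and 2 held a CRE (TGACGTCA; 10.5% beside 2.9% of all).

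Chemokines that attract neutrophils were among the largest rises. Cxcl3 had signals of 10.01, 6.42 and 9.50 on the old arrays, against 4.71, 5.35 and 4.46 on the young arrays, with no overlap and a wide spread in old livers. The difference was 3.80 ± 0.80 (adjusted p = 0.0107). Cxcl2 had signals of 10.45, 7.82 and 9.64 on the old arrays, against 5.78, 6.15 and 5.61 on the young arrays, and it rose by 3.46 ± 0.84 (adjusted p = 0.0182). Both had low signals in young livers, where no detection call was used here, so no fold is given. Their relatives Cxcl1 (1.48 ± 0.46, adjusted p = 0.0482) and Cxcl5 (0.87 ± 0.19, adjusted p = 0.0122) rose too. Cxcl1 kept its call in only 1 of the 6 fits without 1 array. The signals of Cxcl5 were low, at 5.96, 5.30 and 6.33 in old and 5.27, 4.89 and 4.80 in young livers. Il6, the cytokine that activates STAT3 in hepatocytes early in regeneration, rose by 0.55 ± 0.10 (adjusted p = 0.0051) at low signals (4.95, 5.07 and 5.27 in old and 4.34, 4.75 and 4.54 in young livers). Of 29 measured chemokines and cytokines 5 rose and 1 fell (Il15, named after its value was seen), and the median was 0.28, or 0.07 without old replicate 3. The called members were 20.7% of the list beside 7.39% of all genes. Leaving out old replicate 1, 2 or 3 gave 1, 4 and 8 called members, and leaving out young replicate 1, 2 or 3 gave 4, 2 and 2. None of 10 neutrophil markers passed. The mean signal of those markers was 8.68, 8.22 and 8.45 on the old arrays, against 7.97, 8.22 and 8.02 on the young arrays, and the highest young array equalled the lowest old one to within rounding. The differences of 6 markers were above 0 and those of 4 below, with a median of 0.08. S100a9, a calcium-binding protein of neutrophils, had 11.27, 9.76 and 10.74 on the old arrays, against 8.83, 9.59 and 8.66 on the young arrays (1.56 ± 0.69, adjusted p = 0.145). The neutrophil elastase gene Elane had 8.42, 8.58 and 8.58 on the old arrays, against 8.43, 8.67 and 8.56 on the young arrays (-0.03 ± 0.16, adjusted p = 0.931). The part of these cells in the chemokine rise was not tested.

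Cd14, the co-receptor for bacterial lipopolysaccharide, had signals of 13.25, 11.70 and 11.05 on the old arrays, against 8.98, 9.13 and 8.19 on the young arrays, and it rose by 3.24 ± 0.92 (adjusted p = 0.036). Of 13 measured Kupffer cell and macrophage markers it was the only one that rose, and the scavenger receptor Cd163 fell (-1.03 ± 0.24, adjusted p = 0.016; 7.48, 7.68 and 7.31 in old and 8.46, 8.90 and 8.21 in young livers). Cd163 was lower in old livers at 0 h as well (-1.62, adjusted p = 0.00105). In this list 15.4% of the markers were called, beside 7.39% of all genes. The calls numbered 0, 1 and 2 without old replicate 1, 2 or 3 and 1, 0 and 1 without young replicate 1, 2 or 3. The mean signal of the macrophage list overlapped, at 9.25, 9.61 and 9.73 on the old arrays, against 9.48, 9.79 and 8.97 on the young arrays. Plscr1, a phospholipid scramblase induced by interferon, had signals of 12.32, 11.94 and 10.97 on the old arrays, against 8.59, 8.74 and 8.79 on the young arrays, 3 high old and 3 closely spaced young values, and rose by 3.04 ± 0.56 (adjusted p = 0.00549). Tnfrsf12a, the receptor for the cytokine TWEAK, had signals of 13.61, 13.31 and 12.21 on the old arrays, against 11.01, 10.50 and 10.36 on the young arrays, and it rose by 2.42 ± 0.51 (adjusted p = 0.0105). Nid1, the basement membrane protein nidogen, rose by 2.61 ± 0.60 (adjusted p = 0.0143), with its other probe sets at 0.31 and 0.66. The immunoglobulin heavy chain gene Ighm rose by 2.32 ± 0.57 (adjusted p = 0.0195), although among its 11 probe sets some pointed the other way. Ighm differed by 2.08 at 0 h and 3.04 after sham, without passing. Sox9, a transcription factor of bile duct and progenitor cells, rose by 1.56 ± 0.26 (adjusted p = 0.00316), with 8.46, 9.07 and 8.43 on the old arrays, against 7.22, 6.84 and 7.22 on the young arrays.

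**Figure D4:**
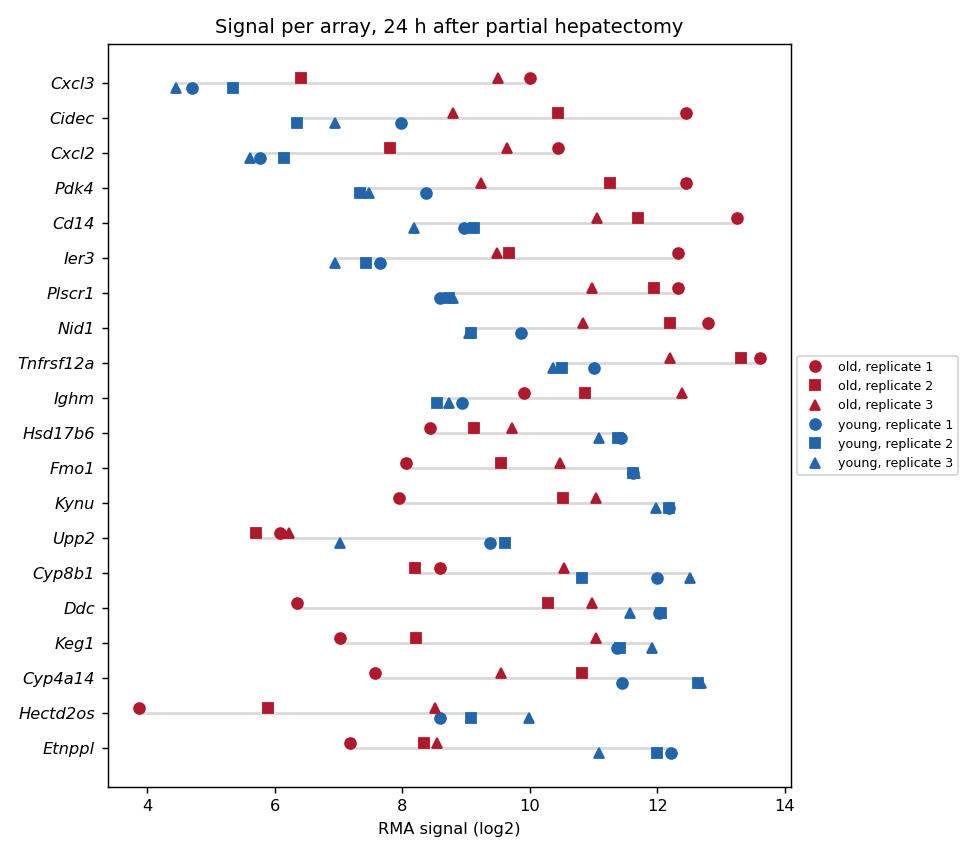
Log2 RMA signal (horizontal axis) on each array for the 10 largest rises and 10 largest falls among called genes whose groups do not overlap, with old arrays above young arrays in each row and a symbol per replicate. Young arrays lie close together in most rows, and old replicate 1 is often the array farthest from them.

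Many enzymes that break down amino acids and make urea fell. Of 31 measured members 18 fell and none rose (2.87% of all genes were called lower), and the median was -0.71, beside -0.07 at 0 h, 0.02 after sham, -0.36 at 38 h and -0.08 at 48 h after PH. At 38 h the mean level of the list was 12.28, 12.35 and 11.18 on the old arrays, against 12.30, 12.32 and 12.50 on the young arrays. The lowest value there came from the old 38 h array that stood apart. Hgd, which opens the ring of homogentisate in tyrosine breakdown, had signals of 10.27, 11.94 and 12.73 on the old arrays, against 13.74, 13.74 and 13.55 on the young arrays, and it fell by 2.03 ± 0.53 (adjusted p = 0.0243). Cth, which makes cysteine from cystathionine, had signals of 9.93, 11.93 and 11.89 on the old arrays, against 13.39, 13.47 and 12.98 on the young arrays. It fell by 2.03 ± 0.52 (adjusted p = 0.0224), and in both genes old replicate 1 was the lowest array. The proline-degrading enzymes Prodh (-1.76 ± 0.45, adjusted p = 0.0227) and Aldh4a1 (-1.74 ± 0.53, adjusted p = 0.0458) fell, as did Cps1, the entry enzyme of the urea cycle (-0.99 ± 0.25, adjusted p = 0.0227). Without old replicate 1, 2 or 3 the list had 3, 7 and 21 called genes, and without young replicate 1, 2 or 3 it had 4, 2 and 7. Relative to 0 h, 17 of the 31 members had an unadjusted p under 0.05 for a change in the age difference and none passed.

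The largest falls outside that list included other enzymes of amino acid and nitrogen metabolism. Etnppl, which cleaves phosphoethanolamine, had signals of 7.18, 8.34 and 8.55 on the old arrays, against 12.21, 11.996 and 11.09 on the young arrays. It fell by 3.75 ± 0.53 (adjusted p = 0.000916), a 13.4-fold lower signal, and differed by -0.75 at 0 h and -1.46 after sham, without passing there. Another probe set of Etnppl differed by -0.85. Kynu, an enzyme of tryptophan breakdown, had signals of 7.95, 10.52 and 11.04 on the old arrays, against 12.18, 12.19 and 11.98 on the young arrays, and it fell by 2.28 ± 0.65 (adjusted p = 0.0361). Ddc, the aromatic amino acid decarboxylase, fell by 2.68 ± 0.81 (adjusted p = 0.0446), with old signals of 6.36, 10.28 and 10.98. Another probe set of Ddc differed by only -0.04. In Kynu and Ddc old replicate 1 was the lowest array, and without it their adjusted p were 0.279 and 0.343. The uridine phosphorylase Upp2 (-2.67 ± 0.68, adjusted p = 0.0224, with another probe set pointing the other way), the steroid dehydrogenase Hsd17b6 (-2.21 ± 0.51, adjusted p = 0.0159), Keg1 (-2.80 ± 0.75, adjusted p = 0.0273) and the opposite-strand transcript Hectd2os (-3.12 ± 0.88, adjusted p = 0.0344) fell as well. Another probe set of Hsd17b6 differed by only -0.05.

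Genes of the pericentral zone, the hepatocytes around the central vein, were lower in old livers in 16 of 17 members, and 10 fell with none rising, beside 2.87% of all genes called lower (median -0.86, or -0.55 without old replicate 1). This count moved with single arrays, at 0, 1 and 14 without old replicate 1, 2 or 3 and 3, 0 and 1 without young replicate 1, 2 or 3. Oat, ornithine aminotransferase, had signals of 11.40, 12.72 and 13.45 on the old arrays, against 14.09, 14.18 and 14.20 on the young arrays, and it fell by 1.64 ± 0.46 (adjusted p = 0.0347). Cyp1a2, a cytochrome P450 that metabolises drugs, had signals of 11.41, 11.97 and 11.56 on the old arrays, against 13.30, 13.36 and 13.06 on the young arrays, clear of each other, and fell by 1.59 ± 0.36 (adjusted p = 0.0136). The glutamate transporter Slc1a2 fell by 1.26 ± 0.29 (adjusted p = 0.0143), and the aldehyde dehydrogenase Aldh1b1, which is also on the periportal list, by 1.55 ± 0.44 (adjusted p = 0.0344). The arrays of Aldh1b1 overlapped, with old replicate 3 at 8.55 and young replicate 3 at 8.47. Of 14 measured genes of the periportal zone 5 fell and 1 rose (median -0.40, or -0.19 without old replicate 1), among them the histidine ammonia-lyase Hal (-1.22 ± 0.32, adjusted p = 0.0272) and Cyp2f2 (-1.38 ± 0.31, adjusted p = 0.0132). The called periportal genes were 42.9% of the list beside 7.39% of all genes. Fits lacking old replicate 1, 2 or 3 called 1, 2 and 7 members, and fits lacking young replicate 1, 2 or 3 called 1, 0 and 2. Whether the zones differed was not tested.

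Of 37 measured P450 and flavin monooxygenase genes, 7 fell and none rose, beside 2.87% of all genes called lower (median -0.27). Leaving out old replicate 1, 2 or 3 gave 0, 1 and 12 called members, and leaving out young replicate 1, 2 or 3 gave 4, 0 and 3. Fmo1, a flavin monooxygenase of drug metabolism, had signals of 8.06, 9.55 and 10.48 on the old arrays, against 11.62, 11.62 and 11.65 on the young arrays, and it fell by 2.27 ± 0.54 (adjusted p = 0.0175). The young signals of Fmo1 were nearly equal, whereas the old ones were spread. Cyp2c50 fell by 0.99 ± 0.28 (adjusted p = 0.0357). In bile acid synthesis and transport 2 of 28 genes rose and 2 fell, 14.3% of the list beside 7.39% of all genes called. The median was -0.63, or -0.33 without old replicate 1. The calls numbered 0, 0 and 14 without old replicate 1, 2 or 3 and 2, 2 and 0 without young replicate 1, 2 or 3. Cyp8b1, which directs synthesis to cholic acid, had signals of 8.59, 8.20 and 10.54 on the old arrays, against 12.004, 10.83 and 12.52 on the young arrays, and it fell by 2.68 ± 0.61 (adjusted p = 0.0142). Cyp7a1, the rate-limiting enzyme of bile acid synthesis, had 8.11, 8.44 and 7.77 on the old arrays, against 9.94, 9.54 and 9.36 on the young arrays, without overlap, but did not pass (-1.51 ± 0.65, adjusted p = 0.135). Akr1d1, a steroid reductase of the pathway, fell (-1.60 ± 0.50, adjusted p = 0.0491). The export pump Abcb1a (2.21 ± 0.50, adjusted p = 0.0142) and the basolateral bile acid exporter subunit Slc51b (1.05 ± 0.31, adjusted p = 0.0431) rose, each with old replicate 3 near the young arrays.

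Lipid droplet genes included some of the largest rises. Cidec, a protein that fuses lipid droplets, had signals of 12.45, 10.45 and 8.80 on the old arrays, against 7.99, 6.36 and 6.95 on the young arrays, and it rose by 3.47 ± 0.95 (adjusted p = 0.0313). The related Cidea had 10.08, 9.76 and 7.57 on the old arrays, against 8.37, 6.45 and 6.35 on the young arrays, with old replicate 3 within the young range, and rose by 2.08 ± 0.50 (adjusted p = 0.0175). Hilpda, an inhibitor of triglyceride lipase, rose by 2.23 ± 0.65 (adjusted p = 0.04), and Plin3, a droplet coat protein, by 0.68 ± 0.21 (adjusted p = 0.045). Of 21 measured members 4 rose and 1 fell (median 0.18, or 0.27, 0.38, 0.43 and 0.31 without old replicate 2, old replicate 3, young replicate 1 and young replicate 3). The called droplet genes were 23.8% of the list beside 7.39% of all genes. Without old replicate 1, 2 or 3 the list had 0, 0 and 9 called genes, and without young replicate 1, 2 or 3 it had 2, 1 and 0. Adipocyte markers overlapped in mean signal, at 9.60, 9.08 and 8.66 on the old arrays, against 9.999, 8.56 and 8.49 on the young arrays: of 6 measured, Cidec rose and Retn, encoding resistin, fell (-0.71 ± 0.15, adjusted p = 0.0129). The called adipocyte markers were 33.3% of the list beside 7.39% of all genes. Their count was 0, 1 and 2 without old replicate 1, 2 or 3 and 2, 1 and 1 without young replicate 1, 2 or 3.

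Pdk4, the kinase that blocks pyruvate dehydrogenase and spares glucose, had signals of 12.46, 11.26 and 9.24 on the old arrays, against 8.37, 7.33 and 7.48 on the young arrays. All old signals lay above the young ones, that of replicate 3 by the least, and Pdk4 rose by 3.26 ± 0.89 (adjusted p = 0.0301). Fgf21, a fasting and stress hormone of the liver, rose by 1.81 ± 0.43 (adjusted p = 0.0166), although its old replicate 3 lay within the young range (9.71, 10.51 and 7.79 in old and 7.30, 7.43 and 7.85 in young livers). Of 26 measured genes of fatty acid oxidation and ketogenesis these 2 rose and 3 fell, among them the fatty acid hydroxylase Cyp4a14 (-2.95 ± 0.87, adjusted p = 0.0415) and the acyl-CoA thioesterase Acot1 (-1.17 ± 0.34, adjusted p = 0.0395). This count moved with single arrays, at 0, 2 and 9 without old replicate 1, 2 or 3 and 3, 0 and 1 without young replicate 1, 2 or 3. With all arrays it was 19.2% of the list beside 7.39% of all genes called. In gluconeogenesis, Fbp1, fructose bisphosphatase, fell by 0.45 ± 0.09 (adjusted p = 0.0068), with 13.76, 13.75 and 13.79 on the old arrays, against 14.23, 14.20 and 14.20 on the young arrays, a small difference between tight groups. Tat, tyrosine aminotransferase, fell (-0.51 ± 0.13, adjusted p = 0.0204), and Igfbp1, a secreted IGF-binding protein induced early after PH, had 14.07, 13.99 and 13.55 on the old arrays, against 11.74, 12.43 and 13.18 on the young arrays, and it did not pass (1.42 ± 0.64, adjusted p = 0.153). Of 17 measured genes of gluconeogenesis and glycogen, Pdk4 rose and 2 fell, 17.6% of the list beside 7.39% of all genes called. Fits lacking old replicate 1, 2 or 3 called 2, 1 and 8 members, and fits lacking young replicate 1, 2 or 3 called 2, 1 and 2. Of 20 cholesterol synthesis genes 1 was called, Hsd17b7 (0.91 ± 0.27, adjusted p = 0.041), 5.0% of the list beside 7.39% of all genes called. The median of that list was 0.50, or 0.96 and -0.07 without old replicate 1 and old replicate 3, and its mean signals overlapped, at 10.16, 10.91 and 11.79 on the old arrays, against 10.35, 10.47 and 10.65 on the young arrays. None of 20 fatty acid synthesis genes passed. Without old replicate 3, 2 cholesterol and 2 fatty acid synthesis genes were called, and without any other single array 0.

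Egln3, a prolyl hydroxylase that marks hypoxia-inducible factor for destruction, had the smallest adjusted p of the genes named. Its signals were 9.58, 8.66 and 9.23 on the old arrays, against 11.48, 11.79 and 10.70 on the young arrays, and it fell by 2.17 ± 0.24 (adjusted p = 4.29e-05), 4.49-fold lower in old livers. It was the only gene called among 21 of hypoxia and glycolysis, 4.8% of the list beside 7.39% of all genes called. Without old replicate 3, 4 genes of that list were called. Of 17 heat shock chaperones 5 fell and none rose (median -0.38, or -0.25 and -0.23 without old replicate 2 and young replicate 3), among them Hsph1 (-1.46 ± 0.41, adjusted p = 0.0341), a partner of Hsp70, and Dnaja1 (-0.74 ± 0.23, adjusted p = 0.0466), its co-chaperone. The called chaperones were 29.4% of the list beside 7.39% of all genes. Leaving out old replicate 1, 2 or 3 gave 1, 0 and 9 called members, and leaving out young replicate 1, 2 or 3 gave 2, 0 and 0. The amino acid stress factor Atf4 rose (0.62 ± 0.12, adjusted p = 0.00841), with another probe set pointing the other way. Psat1, an enzyme of serine synthesis, rose (2.12 ± 0.57, adjusted p = 0.03), and Shmt2, the mitochondrial serine hydroxymethyltransferase, fell (-1.07 ± 0.29, adjusted p = 0.0309). The list of ATF4 targets also holds Atf4 itself. Of its 19 measured genes 3 rose (Atf4, Psat1 and Fgf21) and 1 fell, 21.1% of the list beside 7.39% of all genes called. The calls numbered 0, 1 and 9 without old replicate 1, 2 or 3 and 1, 1 and 2 without young replicate 1, 2 or 3. None of 21 genes of the unfolded protein response and none of 19 NRF2 targets passed, and the 30 ribosome biogenesis genes gave none either (median 0.19, or 0.03 without old replicate 1). Without old replicate 3 these lists had 1, 7 and 8 called genes, and without any other single array 0.

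Of 22 hepatocyte transcription factors 3 fell and none rose, 13.6% of the list beside 7.39% of all genes called. Without old replicate 1, 2 or 3 the list had 1, 1 and 5 called genes, and without young replicate 1, 2 or 3 it had 2, 2 and 2. Onecut1, a factor of hepatocyte and bile duct identity, had signals of 7.58, 7.83 and 8.55 on the old arrays, against 8.84, 9.78 and 10.13 on the young arrays, and it fell by 1.60 ± 0.30 (adjusted p = 0.00612). Cebpa, which restrains proliferation and drives metabolic genes, had 11.58, 11.43 and 12.07 on the old arrays, against 12.51, 12.38 and 12.47 on the young arrays, and it fell by 0.76 ± 0.17 (adjusted p = 0.0129). Nr1h3, the oxysterol receptor LXR alpha, fell by 0.60 ± 0.17 (adjusted p = 0.0313). Hnf4a (-0.12 ± 0.08, adjusted p = 0.354) and Cebpb (-0.17 ± 0.12, adjusted p = 0.38) did not pass. In the growth hormone axis the receptor Ghr (-1.50 ± 0.46, adjusted p = 0.0466), Igfals, which carries IGF1 in plasma (-1.71 ± 0.37, adjusted p = 0.012), and Igf1 itself (-0.28 ± 0.08, adjusted p = 0.0302) fell, and the male-biased urinary protein gene Mup10 fell too (-1.98 ± 0.51, adjusted p = 0.0233); its family is near identical in sequence, so its probes may read other members. The kinase Jak2, which signals for the receptor, rose (0.34 ± 0.10, adjusted p = 0.0425). Igf1 lost its call in each of the 6 fits without 1 array. Of 24 members 1 rose and 4 fell (median -0.32), 20.8% of the list beside 7.39% of all genes called. This count moved with single arrays, at 0, 0 and 12 without old replicate 1, 2 or 3 and 2, 0 and 1 without young replicate 1, 2 or 3.

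Of 22 measured clock genes 2 rose and 1 fell, with 11 of 22 differences above 0. Called were 13.6% of this list beside 7.39% of all genes. Fits lacking old replicate 1, 2 or 3 called 2, 1 and 4 members, and fits lacking young replicate 1, 2 or 3 called 2, 1 and 2. Noct, a rhythmic phosphatase of NADP cofactors, had signals of 11.75, 12.33 and 12.30 on the old arrays, against 10.85, 10.63 and 9.61 on the young arrays, and it rose by 1.77 ± 0.31 (adjusted p = 0.0039). Its age difference was 1.40 at 0 h (adjusted p = 0.0584) and 1.67 after sham. Bhlhe40, a repressor of the clock, rose (1.38 ± 0.37, adjusted p = 0.0291), and neither Dbp (-0.92 ± 0.70, adjusted p = 0.414) nor Arntl (-0.07 ± 0.36, adjusted p = 0.92) passed. In extracellular matrix 3 of 32 genes rose and 1 fell, 12.5% of the list beside 7.39% of all genes called. Leaving out old replicate 1, 2 or 3 gave 3, 2 and 7 called members, and leaving out young replicate 1, 2 or 3 gave 3, 2 and 1. The membrane-anchored protease Mmp14 rose by 1.01 ± 0.19 (adjusted p = 0.00521), with 10.74, 10.87 and 10.45 on the old arrays, against 9.88, 9.82 and 9.34 on the young arrays. The small proteoglycan decorin, Dcn, rose (0.53 ± 0.12, adjusted p = 0.014), as did biglycan, Bgn (0.45 ± 0.14, adjusted p = 0.0445), and elastin, Eln, fell (-0.41 ± 0.11, adjusted p = 0.0319). At 0 h and after sham, Dcn differed by 0.43 and 0.22, Bgn by 0.44 and 0.56 and Mmp14 by 0.71 and 0.24, without passing. Eln differed by -0.14 and 0.18 there, also without passing. The arrays of Bgn overlapped after PH, and another probe set of Dcn differed by only 0.14. Dcn was the only one of 13 stellate cell and fibroblast markers called, 7.7% of the list beside 7.39% of all genes called. The mean signal of that list overlapped, at 8.86, 9.21 and 9.76 on the old arrays, against 9.87, 9.14 and 9.02 on the young arrays. Of 36 growth factors and receptors 4 rose and 2 fell, with Tgfbr1, a receptor of TGF-beta (0.99 ± 0.23, adjusted p = 0.0162, another probe set pointing the other way), and Pdgfra (0.71 ± 0.17, adjusted p = 0.0196) among the rises and Klb, the co-receptor of Fgf21 (-0.90 ± 0.28, adjusted p = 0.0481), among the falls. In this list 16.7% of the genes were called, beside 7.39% of all genes. The calls numbered 1, 0 and 14 without old replicate 1, 2 or 3 and 2, 0 and 1 without young replicate 1, 2 or 3. In a list of regulators of chromatin named in liver regeneration, the acetyltransferases Crebbp (0.60 ± 0.16, adjusted p = 0.0272) and Kat2b (0.42 ± 0.10, adjusted p = 0.0182) rose, both with a further probe set of opposite sign, Uhrf1 fell, and the remodelling ATPase Smarca2 did not pass (-0.78 ± 0.36, adjusted p = 0.16). The called chromatin regulators were 20.0% of the list beside 7.39% of all genes. Without old replicate 1, 2 or 3 the list had 0, 0 and 5 called genes, and without young replicate 1, 2 or 3 it had 2, 0 and 1.

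Other inflammatory lists held few called genes. Of 25 acute phase genes Cp, ceruloplasmin (0.43 ± 0.12, adjusted p = 0.0284), and Hamp, hepcidin (0.54 ± 0.16, adjusted p = 0.0411), rose, 8.0% of the list beside 7.39% of all genes called. This count moved with single arrays, at 1, 0 and 4 without old replicate 1, 2 or 3 and 0, 0 and 0 without young replicate 1, 2 or 3. Saa2, a serum amyloid, did not pass (-0.26 ± 0.51, adjusted p = 0.779), and neither did Lcn2 (0.15 ± 0.46, adjusted p = 0.866), whereas at 0 h both were higher in old livers (Saa2 by 2.39, adjusted p = 0.0385; Lcn2 by 3.14, adjusted p = 0.00105). For neither did the change in the age difference against 0 h pass (adjusted p = 0.162 and 0.0784). Of 32 interferon-induced genes 1 was called, the GTPase Iigp1 (0.97 ± 0.19, adjusted p = 0.00808), 3.1% of the list beside 7.39% of all genes called. Fits lacking old replicate 1, 2 or 3 called 2, 1 and 5 members, and fits lacking young replicate 1, 2 or 3 called 1, 0 and 1. The median age difference of that list was 0.40 at 0 h and 0.81 after sham. After PH it was 0.15, or 0.38, -0.12 and 0.08 without old replicate 1, old replicate 3 and young replicate 3. None of 9 MHC class II and antigen presentation genes passed. Markers of T and NK cells (12), sinusoidal endothelium (13), red cell precursors (8), skeletal muscle (8) and pancreas (6) gave no called gene, although without old replicate 3 there were 5 endothelial, 2 red cell and 1 pancreas markers called. Of 6 platelet markers 1, the chemokine Ppbp, rose (1.21 ± 0.32, adjusted p = 0.0271), 16.7% of the list beside 7.39% of all genes called. Without old replicate 1, 2 or 3 the list had 1, 0 and 1 called genes, and without any single young replicate 0. Of 10 hepatocyte markers the apolipoprotein Apoa1 rose (0.17 ± 0.05, adjusted p = 0.0485) and Cps1 fell, and of 11 cholangiocyte markers Sox9 rose and Onecut1 fell. These calls were 20.0% and 18.2% of the lists beside 7.39% of all genes. Without old replicate 1, 2 or 3 there were 0, 1 and 3 hepatocyte markers called, and without any single young replicate 0. For cholangiocyte markers the counts were 2, 2 and 3, and 2 without any single young replicate. Ighm was the only called gene of 10 B and plasma cell markers. Among 18 senescence and ageing genes Cdkn1a, Cxcl1 and Il6 rose and Foxm1 fell, 22.2% of the list beside 7.39% of all genes called. Leaving out old replicate 1, 2 or 3 gave 1, 2 and 8 called members, and leaving out young replicate 1, 2 or 3 gave 3, 2 and 2. Of 13 female-biased liver genes the peroxisomal transporter Abcd2 rose (1.18 ± 0.36, adjusted p = 0.0452, other probe sets pointing both ways) and the sulfotransferase Sult3a1 fell (-0.30 ± 0.09, adjusted p = 0.0436). Afp, the fetal counterpart of albumin, did not pass (0.31 ± 0.20, adjusted p = 0.335).

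Whether the age difference 24 h after PH differed from that in other conditions was tested directly. Against untreated livers 11 genes were called (0.0605% of 18193; 2490 had an unadjusted p under 0.05), and no gene was called against 24 h after sham surgery (2 arrays per age, 1677 genes at an unadjusted p under 0.05) or 48 h after PH (2856). So for nearly all genes called above, a difference from the age effect in untreated livers was not shown. Map3k5, a kinase of the stress-activated JNK and p38 cascades, had an age difference of 0.67 24 h after PH and -0.74 at 0 h. Its signals after PH were 9.63, 9.88 and 9.56 on the old arrays, against 9.12, 8.93 and 9.01 on the young arrays, and the change of 1.41 ± 0.16 passed (adjusted p = 0.000101). Snhg3, a host transcript of small nucleolar RNAs, had signals of 9.25, 8.98 and 8.78 on the old arrays, against 7.36, 7.38 and 7.22 on the young arrays after PH, and its age difference was 1.68 24 h after PH and -0.63 at 0 h. Creb3l2, a membrane-bound transcription factor of the secretory pathway, had an age difference of 0.84 24 h after PH and -0.60 at 0 h. In these 3 genes the age difference passed after PH, and at 0 h it passed in Map3k5 but not in Snhg3 or Creb3l2. Fgl1, a hepatocyte-secreted fibrinogen-like protein, went the other way: the difference was -0.11 24 h after PH and 1.39 at 0 h, with high and overlapping signals after PH (13.64, 13.91 and 14.11 in old and 13.86, 14.03 and 14.11 in young livers). The age difference of Egln3 was -2.17 24 h after PH and -0.43 at 0 h, and that of Cdh19, a cadherin, 0.37 24 h after PH and 1.64 at 0 h. With old replicate 3 left out 380 genes were called against 0 h, with old replicate 2 left out 3, and with young replicate 1 or 2 left out 1 each. With old replicate 1 and the outlying old 38 h array both left out, an alternative added after seeing the data, 124 genes were called against 0 h.

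**Figure D5:**
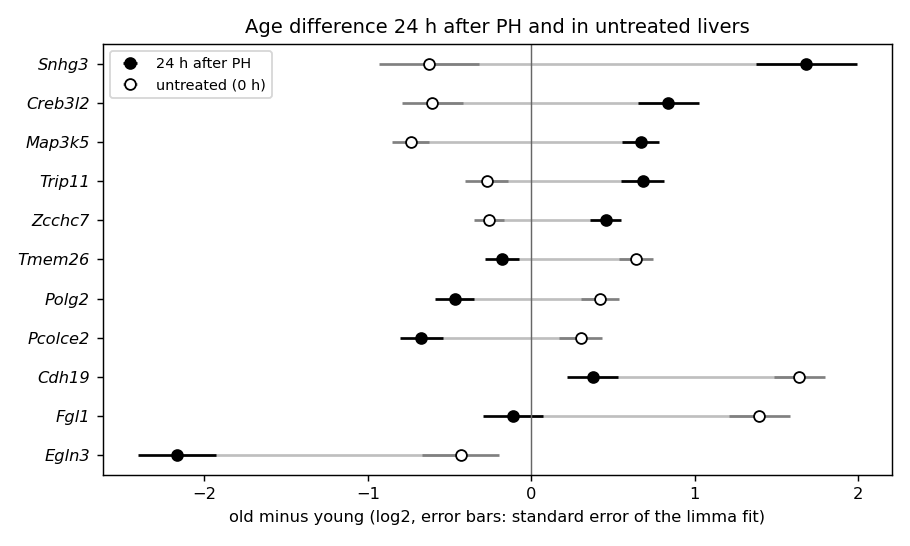
Age difference (old minus young, log2, horizontal axis) 24 h after PH (filled points) and in untreated livers (open points) for the 11 genes whose age difference changed between these conditions, with standard errors of the limma fit as bars. Map3k5, Snhg3, Creb3l2, Trip11 and Zcchc7 lie above 0 after PH and below 0 at 0 h.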

How the data were processed

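Total liver RNA, isolated on RNeasy columns and labelled from 5 µg per the labels' protocols, was hybridised to Affymetrix mouse whole-genome arrays, 1 sample per array. The deposited values are log2 signals made by the authors with RMA, per the submitters' processing notes. RMA corrects background, equalises probe signals between arrays and summarises each probe set. The version of RMA, and whether the arrays went through it as a single set, are not stated by those sources. Arrays have no read depth. Of 45101 probe sets (64 controls) the platform annotation lists 35890, 34945 with 1 gene symbol and 932 with several. The set with the highest mean was used for each of 18193 genes (9010 have over 1 set). Promoters came from RefSeq (GRCm38.p6).

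A limma model (version 3.58.1, R 4.3.3) with a mean for each of 14 groups was fitted on all 35 arrays, and eBayes moderated the variances (degrees of freedom 21 residual, 3.29 prior), with Benjamini-Hochberg adjustment per contrast. Exact permutation of 3 against 3 arrays cannot give a p below 0.1, so it was not used. The code was tested on simulated data. The rule for named genes took the 10 largest rises and 10 largest falls among called genes without overlap, up to 4 called members with the largest change of each list (or else the 2 with the highest level), a panel of genes, and up to 3 genes in each direction per interaction. The members and the 46 lists were chosen with earlier results of these data known. Lists are described by counts and medians, with no test. Figures were drawn with matplotlib 3.10.9 in Python 3.11.15. Alternatives changed the probe set, the unit tested, a filter on dim genes, the scaling, a replicate block, weights per array, the prior on the variance, a minimum fold and which arrays were fitted.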

Additional observations from a re-analysis of the deposited data

Results flagged for a closer look

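The age difference 24 h after PH changed against that at 0 h by a test of the change itself (limma, adjusted p under 0.05) in 11 genes. It shifted upward after PH, as log2 differences, by 2.307 in Snhg3, 1.443 in Creb3l2, 1.409 in Map3k5, 0.954 in Trip11 and 0.714 in Zcchc7. In these 5 genes the age difference was positive and passed after PH and was negative at 0 h, where of the 5 it passed in Map3k5. The change was negative, -1.735 in Egln3, -1.505 in Fgl1, -1.265 in Cdh19, -0.976 in Pcolce2, -0.890 in Polg2 and -0.822 in Tmem26. Pcolce2, an enhancer of procollagen processing, had an age difference of -0.67 24 h after PH and 0.30 at 0 h, and Polg2, a subunit of the mitochondrial DNA polymerase, -0.47 24 h after PH and 0.42 at 0 h. The differences of Tmem26 were -0.18 24 h after PH and 0.64 at 0 h, and those of Trip11, a Golgi protein, 0.68 24 h after PH and -0.27 at 0 h. Zcchc7 differed by 0.45 24 h after PH and -0.26 at 0 h. The adjusted p of these changes ran from 0.000101 to 0.0457. No cause was tested.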

How the results depend on the processing

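The 1345 calls became 8583 with array weights, 14 when tested against a 1.2-fold change and 0 in the fit on the 6 arrays alone, and leaving out 1 of the 6 arrays compared gave 169 to 3786. All other settings kept the count within 1.5 times, with 1190 genes without the 2 old arrays that stand apart. Centring each array on its median gave 1025 higher and 406 lower genes (71.6% higher, against 61.1% as deposited), repeating quantile normalization 653 and 595 (52.3%), and array weights 3951 and 4632 (46.0%). For the change against 0 h, the 11 calls became 3 with the mean of a gene's probe sets, 1 with every probe set tested, 4 without dim genes, 3093 with array weights, 1 against a 1.2-fold change, 1 to 380 without single arrays and 124 without the arrays that stand apart. For the change against sham, 0 became 1987 with array weights, 0 to 3 without single arrays and 6 without the arrays that stand apart. For the change against 48 h, 0 became 5 with mean probe sets, 4 with every probe set, 2 with centring, 4128 with array weights, 0 to 847 without single arrays and 44 without the arrays that stand apart. The cause of these changes was not tested. Same-numbered old and young arrays deviated from their group means with correlations of 0.04, 0.03 and 0.05 across genes, so numbers were not taken as pairs. A block for the replicate number left 1167 calls for old against young and 2 against 0 h. Of the 101 named genes that passed, 80 did not pass without old replicate 1, 79 without young replicate 2, 73 without old replicate 2, 67 without young replicate 3, 50 without young replicate 1, 3 without old replicate 3 and 101 in the 6-array fit, and 0 changed sign in a fit with 1 value per gene. The 3 arrays a group, the wide spread of old livers and signals near the floor limit small changes.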
